A study of Mus musculus with 6 samples.

Results

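Interferon-stimulated genes are the genes that a cell switches on when it senses an interferon. In platelet RNA from mice at the pre-AML stage and from bone marrow transplantation (BMT) control mice, 39 such genes were examined, chosen by symbol from the 14975 genes of the deposited table, and all 39 were found there. The rule goes by symbol and uses no measured value. The labels give C57BL/6 as the strain background of every sample. Pre-AML mice were irradiated at a sub-lethal dose and had received GFP+ cells of leukemic mice, in which hematopoietic stem and progenitor cells had been transformed with a retrovirus that carries MLL-AF9 and GFP. Control mice were irradiated and received normal bone marrow, so irradiation and a transplant were shared by both groups. The study's recipients were young adult females, C57BL/6 or congenic CD45.1 without saying which here, and after such irradiation a host keeps blood-forming cells of its own, so platelets of host and donor origin cannot be told apart here. The sample labels call the groups AML and WT and give no age or week. The study describes the pre-AML stage as 1 week after transplantation. There were 3 libraries in each group, numbered 1 to 3, as in control 1 or pre-AML 3, and values given in a row follow these numbers. The labels speak of 2 replicates a group and of 3 to 4 pooled mice, and the study of 3 independent mice, so the p-values measure the spread between these libraries only. Platelets were taken from platelet-rich plasma, and cells that carry CD45, a leukocyte marker, or Ter119, an erythroid marker, were depleted before RNA extraction and SMART-Seq2 amplification.

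Type I interferons bind the receptor IFNAR1/IFNAR2, whose kinases JAK1 and TYK2 lead to the assembly of the complex ISGF3, with STAT2 and IRF9 among its subunits, which binds the interferon-stimulated response element (ISRE) in promoters. Type II interferon acts through IFNGR1/IFNGR2 and the gamma-activated site (GAS). Platelets have no nucleus, and most of their RNA is inherited from the megakaryocyte that shed them. A level in platelets therefore can reflect what the parent cell transcribed, what the platelet kept, and RNA of other cells in the preparation. In bulk RNA of this kind, fewer cells of a type and less RNA in each cell cannot be told apart.

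The letters through which ISGF3 is known to act could be read in the promoters. RefSeq promoters on GRCm38.p6, from 250 bases before to 50 bases after the start of a gene, were matched for 31 of the 39 members. Mx1, Zbp1, Iigp1, Parp14, Usp18, Rtp4, Ifi27l2a and Oas2 had no entry. The ISRE was searched on both strands as the letters GAAA, any 2 bases and GAAA again, which reads TTTC, any 2 bases and TTTC on the other strand. It was present in 19 of the 31 members (61.3%), against 1079 of 27025 genes (3.99%) and 1131 of all 32851 promoters (3.44%). The GAS, searched as TTC, any 3 bases and GAA, was present in 8 of 31 members (25.8%) and in 9.55% of 27025 genes and 8.30% of all promoters. Both motifs can overlap, and a match is a description of the letters, not a measured binding site. Examples are shown from abundant members (Isg15, Ifit1, Ifitm3, Ifitm2 and Igtp), from the close copies Ifit3 and Ifit3b, and from Oas1a and Gbp3, each in 24 bases, 5′ to 3′ on the strand of the gene, with the matched letters in capitals.
Isg15, 78 bases before the start, chr4:156200874-156200897, minus strand: gGAAAAGGAAACCGAAACAGAAAa
Ifit1, 104 bases before the start, chr19:34640778-34640801, plus strand: gcttcagTTTCACTTTCcagtctc
Ifit1, 85 bases before the start, chr19:34640797-34640820, plus strand: gtctcagTTTCAGTTTCtcactgc
Ifit3, 156 bases before the start, chr19:34583366-34583389, plus strand: tggtaagTTTCACTTTCctcttct
Ifit3b, 188 bases before the start, chr19:34607762-34607785, plus strand: tggtaagTTTCACTTTCctcttct
Oas1a, 20 bases before the start, chr5:120907526-120907549, minus strand: tcggGAAATGGAAACTGAAAatct
Ifitm3, 20 bases after the start, chr7:141010709-141010732, minus strand: cttctgaGAAACCGAAActgccgc
Ifitm2, 46 bases before the start, chr7:140955991-140956014, minus strand: ccaacagGAAAAGGAAAttgctag
Igtp, 34 bases before the start, chr11:58199515-58199538, plus strand: aggaactGAAACTGAAAgctgttc
Gbp3, 45 bases before the start, chr3:142559995-142560018, plus strand: acagTTTCAGTTTCTATTTCccag
Isg15 held 3 matches that ran into each other, Oas1a and Gbp3 held 2 overlapping matches, and the windows of Ifit3 and Ifit3b were the same in all 24 bases. Over the promoters of all members, 24 stretches were matched, 19 before and 5 after the start, and 10 members held more than 1 match. The letters did not sort the members by level. The 19 members with the motif had mean levels between 0.175 and 3707 FPKM (median 3.14), and the 12 without it had mean levels between 0.0641 and 306 FPKM (median 2.98). Their log2 fold changes between pre-AML and control platelets covered -0.60 to 0.66 and -0.40 to 0.42.

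The unit of the table is FPKM, the reads of a gene scaled by its length and by the size of the library. Libraries held between 11936050 and 17778918 reads on the listed genes, recovered from the FPKM values as an estimate, and pre-AML 3 had the most. The scale of pre-AML 3 differed from the others, since its FPKM values were divided by 1.31 times its recovered reads, against 0.983 to 1.01 in the other 5 libraries. It stood apart in a principal component analysis as well, at 41.9 on the first component with the other libraries between -12.7 and -2.12. The platelet label was checked against 10 platelet markers, all listed, whose summed level was 89916 to 113950 FPKM in controls and 61391 to 92338 FPKM in pre-AML libraries, with Pf4, Ppbp and Gp9 the most abundant. Of leukocyte markers, 12 of 12 monocyte and macrophage, 7 of 7 B cell, 10 of 11 T and NK cell, 4 of 5 pan-leukocyte and 2 of 2 plasmacytoid dendritic cell genes were highest in pre-AML 3, while this held for 1 of 8 neutrophil, 0 of 5 erythroid and 0 of 10 platelet genes. Of all genes of the table, 35.9% were highest in pre-AML 3. For this reason the interferon-stimulated genes were tested with and without pre-AML 3, and the counts and many of the fold changes are given both ways.

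Platelets of both groups held a small set of interferon-stimulated transcripts at high levels and many at very low ones. Mean levels over the 6 libraries spanned 0.0561 to 3707 FPKM. The mean was at least 10 FPKM for 10 of the 39 members, at least 100 FPKM for 5 and at least 1000 FPKM for 1, Ifitm3, and it was under 1 FPKM for 14. The order from the top was Ifitm3, which blocks fusion of virus with endosomes, then Lgals3bp, a secreted glycoprotein that binds galectins, Ifitm2, an IFITM relative, Igtp, a GTPase of the IRG family, and Isg20, an exonuclease of RNA. Ifitm3 ranked 18 among all 14975 genes, and Lgals3bp, Ifitm2, Igtp and Isg20 ranked 154, 156, 175 and 222. Neighbours in this order were not always separable. Lgals3bp, Ifitm2 and Igtp overlapped in their control values, at 264 to 357, 273 to 333 and 258 to 303 FPKM, whereas Ifitm3 was at 3687 FPKM or more and Isg20 at 188 FPKM or less.

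**Figure D1:**
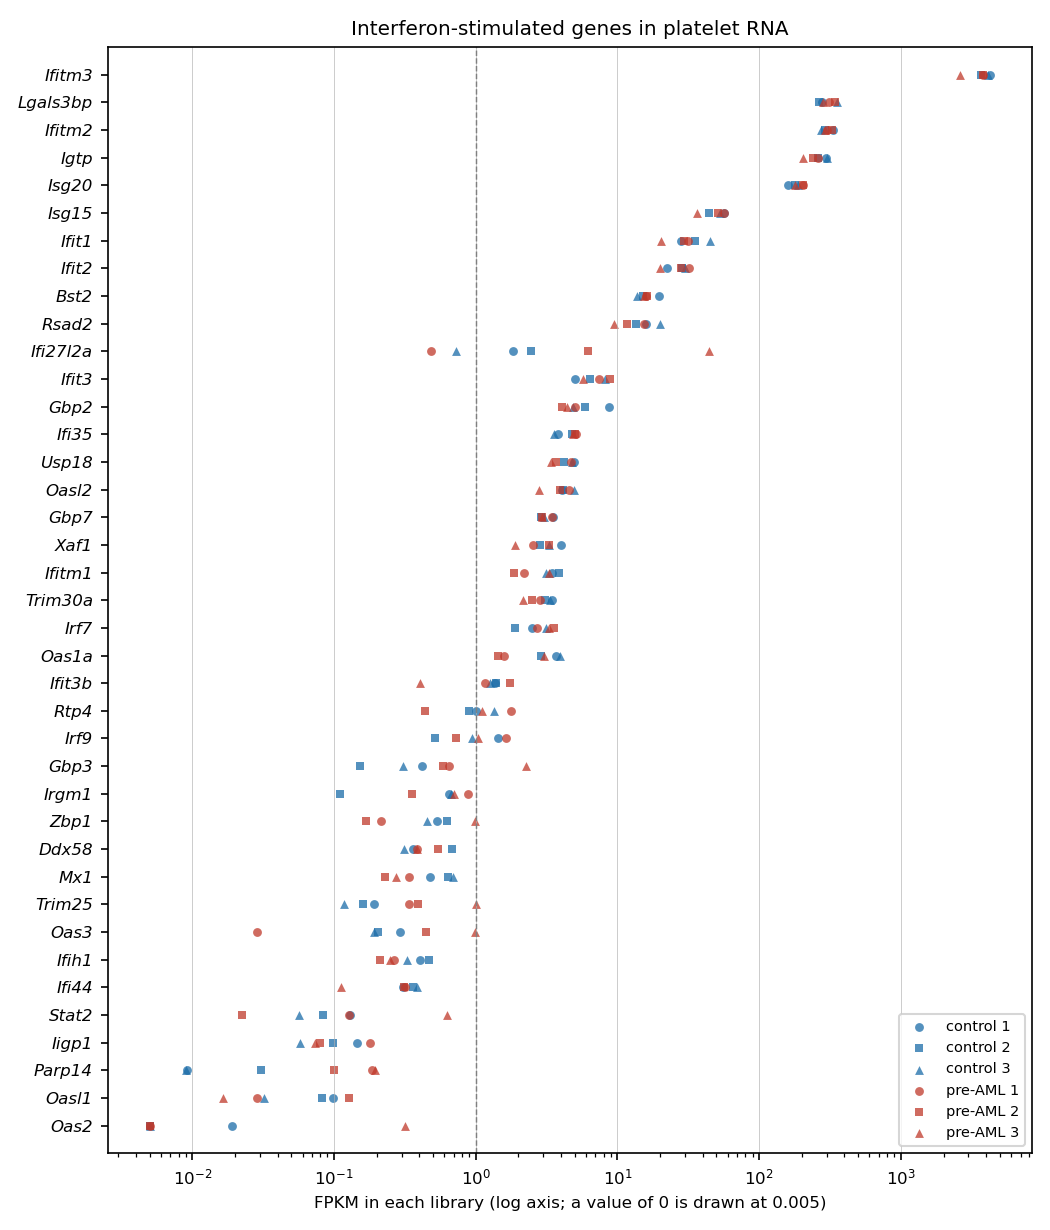
FPKM of the 39 interferon-stimulated genes on a log axis, ordered by their mean, with one point for each library (blue control, red pre-AML, a shape for each replicate) and a dashed line at 1 FPKM. Ifitm3 stands alone at the top with 2635 to 4254 FPKM, 25 members have a mean right of the dashed line, and the points of both colours mix in most rows.

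None of the tested members differed between pre-AML and control platelets beyond the threshold. The test was limma-trend on log2(FPKM + 1), with p adjusted by Benjamini-Hochberg (BH) over all 4412 genes whose mean reached 1 FPKM. By it 0 of 25 members were called higher and 0 lower, where 0.0227% and 0.0% of all tested genes were. At an unadjusted p under 0.05, 0 of 25 were higher (2.56% of all tested genes) and 1, Oas1a, was lower (6.53%). Without pre-AML 3 the counts were again 0 and 0 after adjustment, where 0.047% and 0.0% of 4258 genes were called. At an unadjusted p under 0.05 they were then 0 higher (3.76%) and 2 lower, Oas1a and Ifitm1 (5.21%). Limma-voom on the recovered reads called 0 members and had 0 in each direction at an unadjusted p under 0.05. The adjusted p of the 25 members lay between 0.522 and 0.980.

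The direction of the members was mixed, and it changed when pre-AML 3 was left out. The log2 fold change was below 0 in 17 of 25 tested members (68.0%), against 58.5% of all tested genes, and without pre-AML 3 in 12 of 25 (48.0%), against 55.0%. The median over all 39 members was -0.019, against 0.021 for all genes of the table, and without pre-AML 3 it was 0.0039 against 0.0. Leaving out Ifi27l2a, which is described on its own, the log2 fold changes of the tested members lay between -0.60 and 0.27. Their 95% confidence intervals reached from -1.10 to 0.70, which is 0.467-fold to 1.63-fold on the scale of FPKM + 1, a scale on which the change of a low gene comes out too small. Changes beyond these bounds lay outside the intervals of these 24 members, and changes within their intervals were not resolved with 3 libraries a group.

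Every pre-AML value exceeded every control value in 4 of 39 members (10.3%, against 7.53% of all genes and 6.14% of those tested), namely Trim25, Gbp3, Ifi35 and Parp14. Every pre-AML value was below every control value in 3 (7.69%, against 5.74% and 12.8%), namely Ifih1, Mx1 and Trim30a, and the groups overlapped in 32. With pre-AML 1 and pre-AML 2 only, 5 members were above the controls (12.8%, against 11.0% of all genes and 12.0% of those tested), Isg20 in addition to the 4. Below the controls were 6 (15.4%, against 8.98% and 15.1%), with Zbp1, Oas1a and Ifitm1 in addition to the 3.

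**Figure D2:**
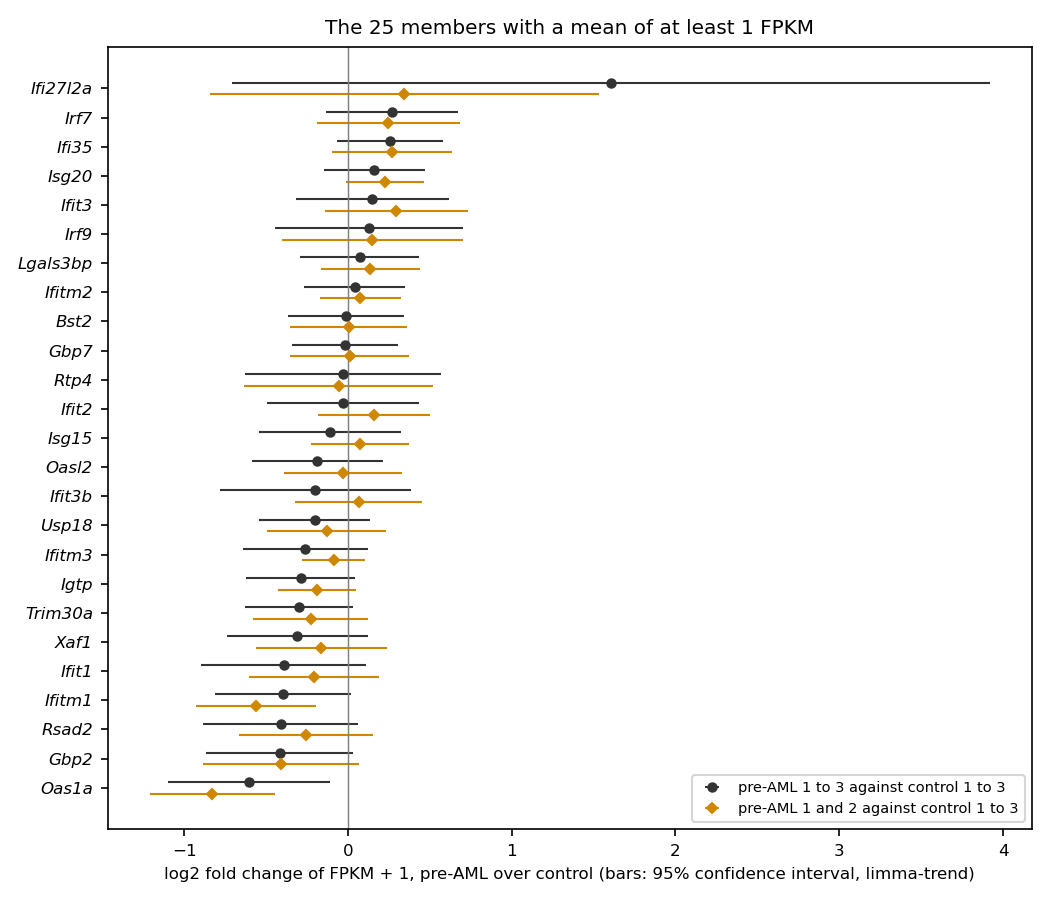
Log2 fold change of FPKM + 1 between pre-AML and control platelets for the 25 tested members with the 95% confidence interval of limma-trend, for all 3 pre-AML libraries (black circles) and without pre-AML 3 (orange diamonds). With all libraries, the interval of 24 members reaches 0 and that of Oas1a ends at -0.11, and Ifi27l2a has the widest interval.

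The transcription factors of the pathway, 3 members, were low in platelets. Irf7, the factor that amplifies interferon production, had 2.48, 1.91 and 3.14 FPKM in the controls and 2.71, 3.58 and 3.29 FPKM in the pre-AML libraries. The groups overlapped, with a log2 fold change of 0.27 (SE 0.18, BH-adjusted p = 0.563 by limma-trend), and 0.25 without pre-AML 3. Irf9, the DNA-binding subunit of ISGF3, spanned 0.515 to 1.44 FPKM in controls and 0.726 to 1.65 FPKM in pre-AML libraries. Stat2, its partner, spanned 0.0567 to 0.129 FPKM in controls and was at 0.127, 0.0224 and 0.629 FPKM in the pre-AML libraries. Only Stat2 had its highest value in pre-AML 3 among these 3 genes.

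The sensors of nucleic acids were all below the filter of 1 FPKM. Ifih1, which encodes MDA5, a sensor of long double-stranded RNA, spanned 0.329 to 0.470 FPKM in controls and 0.211 to 0.267 FPKM in pre-AML libraries, so the groups did not overlap. Its log2 fold change in the fit with no filter was -0.17, with an interval of -0.45 to 0.10. Ddx58, which encodes RIG-I, a sensor of short double-stranded RNA ends, overlapped, at 0.310 to 0.675 FPKM and 0.383 to 0.545 FPKM. Zbp1, a sensor of Z-form nucleic acids, spanned 0.452 to 0.624 FPKM in controls, was at 0.213, 0.169 and 0.996 FPKM in the pre-AML libraries, with the last of these above every control and the others below.

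The IFIT proteins bind viral RNA, and their 4 genes lie side by side on the plus strand of chromosome 19 (GRCm38, GENCODE M21), from 34550694 to 34650009. Ifit1, which recognizes the cap of foreign RNA, had 27.9, 35.5 and 44.6 FPKM in the controls and 31.7, 29.4 and 20.3 FPKM in the pre-AML libraries. Pre-AML 3 was lowest and the groups overlapped, with a log2 fold change of -0.39 (SE 0.22, BH-adjusted p = 0.532 by limma-trend) and -0.20 without pre-AML 3. Ifit2, a relative that also binds RNA, had 22.3, 28.7 and 30.1 FPKM in the controls and 32.1, 28.1 and 19.9 FPKM in the pre-AML libraries, where pre-AML 1 was the highest and pre-AML 3 the lowest of all 6. Its log2 fold change was -0.03 and turned to 0.16 without pre-AML 3. Ifit3, a further relative, had 4.98, 6.39 and 8.24 FPKM in the controls and 7.41, 8.85 and 5.72 FPKM in the pre-AML libraries. Its values overlapped (log2 fold change 0.15, and 0.29 without pre-AML 3).

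Ifit3b is a close copy of Ifit3, and the counting could split reads between them, so both levels are uncertain. Ifit3b spanned 1.26 to 1.39 FPKM in controls and 0.407 to 1.76 FPKM in pre-AML libraries. In every library Ifit3 was above Ifit3b, by 3.65 to 6.53 times in controls and 5.04 to 14.1 times in pre-AML libraries.

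The OAS proteins make 2′-5′ oligoadenylates that activate RNase L, apart from the OASL proteins, which lack that activity in part. Oas1a, the member with the smallest unadjusted p among those tested, lies on chromosome 5 of GRCm38, where Oas2, Oas3 and Oas1a occupy 120730333 to 120907521. Its values were 3.66, 2.90 and 3.92 FPKM in the controls and 1.59, 1.44 and 3.02 FPKM in the pre-AML libraries. Pre-AML 1 and pre-AML 2 were below every control, and pre-AML 3 was within their range. The recovered reads behind these values were 81, 77 and 88 in controls and 40, 41 and 133 in pre-AML libraries. The log2 fold change was -0.60 (SE 0.22, unadjusted p = 0.0223, BH-adjusted p = 0.522 by limma-trend). Without pre-AML 3 it was -0.83, with an interval of -1.21 to -0.45 and an adjusted p of 0.311 from limma-trend, so it did not pass the threshold in either comparison. Oas1a has close copies at this locus, and a split of reads between them would change its level.

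The other OAS genes did not follow Oas1a. Oasl2 had 4.06 to 4.96 FPKM in controls and 2.81 to 4.57 FPKM in pre-AML libraries, with a log2 fold change of -0.19. Oas3 spanned 0.193 to 0.293 FPKM in controls and was at 0.0288, 0.444 and 0.984 FPKM in the pre-AML libraries, on both sides of the control range. Oasl1 was at 0.127 FPKM or less in every library. Oas2 was listed at 0 in control 2, control 3, pre-AML 1 and pre-AML 2, with 1 recovered read in control 1 and 33 in pre-AML 3, or 0.318 FPKM there.

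ISG15 is a ubiquitin-like protein that is attached to other proteins, and USP18 removes it and also dampens IFNAR signaling. Isg15 had 56.6, 44.1 and 53.3 FPKM in the controls and 56.2, 51.5 and 36.5 FPKM in the pre-AML libraries, so pre-AML 1 and pre-AML 2 lay within the control range and pre-AML 3 below it. Its log2 fold change was -0.11 (SE 0.19, BH-adjusted p = 0.825 by limma-trend) and 0.07 without pre-AML 3. Usp18 spanned 4.23 to 4.92 FPKM in controls and 3.43 to 4.69 FPKM in pre-AML libraries (log2 fold change -0.20). The ratio of Isg15 to Usp18 was 10.4 to 11.5 in controls and 10.6 to 14.0 in pre-AML libraries. Trim25, a ubiquitin and ISG15 ligase that activates RIG-I, had 0.192, 0.161 and 0.117 FPKM in the controls and 0.340, 0.392 and 0.998 FPKM in the pre-AML libraries. Every pre-AML library was above every control, and pre-AML 3 was the highest, on 13, 13 and 8 recovered reads against 26, 34 and 134. In the fit with no filter its log2 fold change was 0.42 (unadjusted p = 0.0510, BH-adjusted p = 0.705 by limma-trend over 14975 genes). Without pre-AML 3 this fold change was 0.24.

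Among other antiviral effectors, Rsad2, which encodes viperin, a radical enzyme that makes a chain-terminating nucleotide, had 15.8, 13.4 and 19.8 FPKM in the controls and 15.4, 11.6 and 9.42 FPKM in the pre-AML libraries. Its groups overlapped through pre-AML 1, and the log2 fold change was -0.41 (SE 0.21, BH-adjusted p = 0.522 by limma-trend), or -0.26 without pre-AML 3. Mx1, the gene of a GTPase, had 0.473, 0.638 and 0.688 FPKM in the controls and 0.338, 0.228 and 0.272 FPKM in the pre-AML libraries. All pre-AML values were below all control values, on 21, 34 and 31 recovered reads against 17, 13 and 24. With no filter its log2 fold change was -0.32 (unadjusted p = 0.0538, BH-adjusted p = 0.705 by limma-trend). Isg20 had the opposite pattern, with 159, 178 and 188 FPKM in the controls and 206, 203 and 178 FPKM in the pre-AML libraries. Pre-AML 1 and pre-AML 2 were above every control and pre-AML 3 was not, and the log2 fold change was 0.16 (SE 0.13, BH-adjusted p = 0.625 by limma-trend), which turned to -0.063 once each library was corrected for GC content and length.

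The membrane factors were the most abundant group. The IFITM genes lie on chromosome 7 of GRCm38, with Ifitm2 at 140954837 to 140955987, Ifitm1 at 140967221 to 140969825 and Ifitm3 at 141009586 to 141010770. Ifitm3 had 4254, 3687 and 4116 FPKM in the controls and 3778, 3775 and 2635 FPKM in the pre-AML libraries. Pre-AML 1 and pre-AML 2 were within the control range and pre-AML 3 was below it, with a log2 fold change of -0.26 (SE 0.17, BH-adjusted p = 0.557 by limma-trend) and -0.087 without pre-AML 3. Ifitm2 had 333, 292 and 273 FPKM in the controls and 300.4, 328 and 293 FPKM in the pre-AML libraries, all within the control range. Ifitm1, the form at the cell surface, had 3.43, 3.90 and 3.15 FPKM in the controls and 2.20, 1.88 and 3.29 FPKM in the pre-AML libraries.

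Ifitm1 thus had the pattern of Oas1a, low in pre-AML 1 and pre-AML 2 but not in pre-AML 3. Its log2 fold change was -0.40 (SE 0.18, unadjusted p = 0.0596, BH-adjusted p = 0.522 by limma-trend) and -0.56 without pre-AML 3 (adjusted p = 0.448). Levels differed greatly within the family, since Ifitm3 was 946 to 1307 times Ifitm1 in controls and 801 to 2010 times in pre-AML libraries. The 3 genes are similar in sequence, and how shared reads were counted is not given in the sources used here. Bst2, which encodes tetherin, the tether of budding virus, had 19.5, 15.0 and 13.8 FPKM in the controls and 15.9, 16.1 and 15.4 FPKM in the pre-AML libraries, inside the control range (log2 fold change -0.01).

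The interferon-inducible GTPases attack vacuoles that hold microbes. Igtp, also known as Irgm3, had 296, 258 and 303 FPKM in the controls and 259, 241 and 203 FPKM in the pre-AML libraries. Only pre-AML 1 reached the control range, and the log2 fold change was -0.29 (SE 0.15, BH-adjusted p = 0.522 by limma-trend), or -0.19 without pre-AML 3. The other IRG genes were far lower, with Irgm1, a regulator of the family, at 0.110 to 0.880 FPKM and Iigp1, an effector, at 0.0577 to 0.181 FPKM over the 6 libraries. The high level of Igtp was thus not shared by Irgm1, which it exceeded by 455 to 2348 times in controls and 290 to 681 times in pre-AML libraries.

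The 3 guanylate-binding proteins lie together on chromosome 3 of GRCm38, from 142530342 to 142638008, and did not share a pattern. Gbp2 had 8.67, 5.90 and 4.84 FPKM in the controls and 4.99, 4.06 and 4.41 FPKM in the pre-AML libraries, of which only pre-AML 1 was within the control range (log2 fold change -0.42, SE 0.20, BH-adjusted p = 0.522 by limma-trend). Gbp3 had 0.417, 0.152 and 0.309 FPKM in the controls and 0.645, 0.589 and 2.26 FPKM in the pre-AML libraries, all above the controls. Its recovered reads were 16, 7 and 12 against 28, 29 and 172, and with no filter the log2 fold change was 0.66 (unadjusted p = 0.0558, BH-adjusted p = 0.705 by limma-trend). Without pre-AML 3 this fold change was 0.33. Gbp7 overlapped between groups, at 2.91 to 3.54 FPKM and 2.93 to 3.47 FPKM, with an interval for its log2 fold change of -0.34 to 0.30. The ratio of Gbp2 to Gbp3 was 15.7 to 38.8 in controls and 1.95 to 7.74 in pre-AML libraries. The ranges of this ratio did not overlap, a contrast picked after the values were seen and not tested.

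Lgals3bp led the remaining 8 members, with 276, 264 and 357 FPKM in the controls and 309.6, 343 and 284 FPKM in the pre-AML libraries, all within the control range (log2 fold change 0.07, BH-adjusted p = 0.864 by limma-trend). Ifi35, a partner of the factor NMI, had 3.80, 4.77 and 3.55 FPKM in the controls and 5.09, 4.99 and 4.89 FPKM in the pre-AML libraries. The pre-AML values of Ifi35 were above the controls by a narrow margin over control 2, with a log2 fold change of 0.26 (SE 0.14, BH-adjusted p = 0.529 by limma-trend). Trim30a, which restrains NF-κB and inflammasome signaling, had 3.46, 3.06 and 3.33 FPKM in the controls and 2.83, 2.48 and 2.15 FPKM in the pre-AML libraries. All pre-AML values of Trim30a were below all controls, and its log2 fold change was -0.30 (SE 0.14, BH-adjusted p = 0.522 by limma-trend).

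Parp14, a transferase of ADP-ribose, was close to the limit of detection in controls. It had 0.00915, 0.0305 and 0.00903 FPKM in the controls and 0.186, 0.0997 and 0.193 FPKM in the pre-AML libraries, or 1, 4 and 1 recovered reads against 23, 14 and 42. Every pre-AML library was above every control, also without pre-AML 3. In the fit with no filter, its log2 fold change was 0.19 (unadjusted p = 0.00579, BH-adjusted p = 0.705 by limma-trend). It was the 1 of 39 members higher at an unadjusted p under 0.05 (3.32% of 14975 genes were), and Oas1a was the 1 of 39 that was lower (2.49%). Without pre-AML 3 and with no filter, Trim25 and Parp14 were higher (4.79% of all genes were) and Zbp1, Oas1a, Mx1 and Ifitm1 lower (2.58%), none after adjustment.

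The other 3 of these members overlapped between groups. Xaf1, a promoter of apoptosis, spanned 2.86 to 4.00 FPKM in controls and 1.88 to 3.31 FPKM in pre-AML libraries. Rtp4, a chaperone of receptors, spanned 0.900 to 1.34 FPKM in controls and 0.435 to 1.76 FPKM in pre-AML libraries, and Ifi44 0.306 to 0.384 FPKM and 0.112 to 0.319 FPKM. By role, and with no filter, the log2 fold change was above 0 in 3 of 3 transcription factors, 0 of 3 sensors, 1 of 4 IFIT, 2 of 5 OAS, 1 of 3 ISG15 pathway, 1 of 3 other antiviral, 1 of 4 membrane, 3 of 6 GTPase and 4 of 8 remaining genes.

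**Figure D3:**
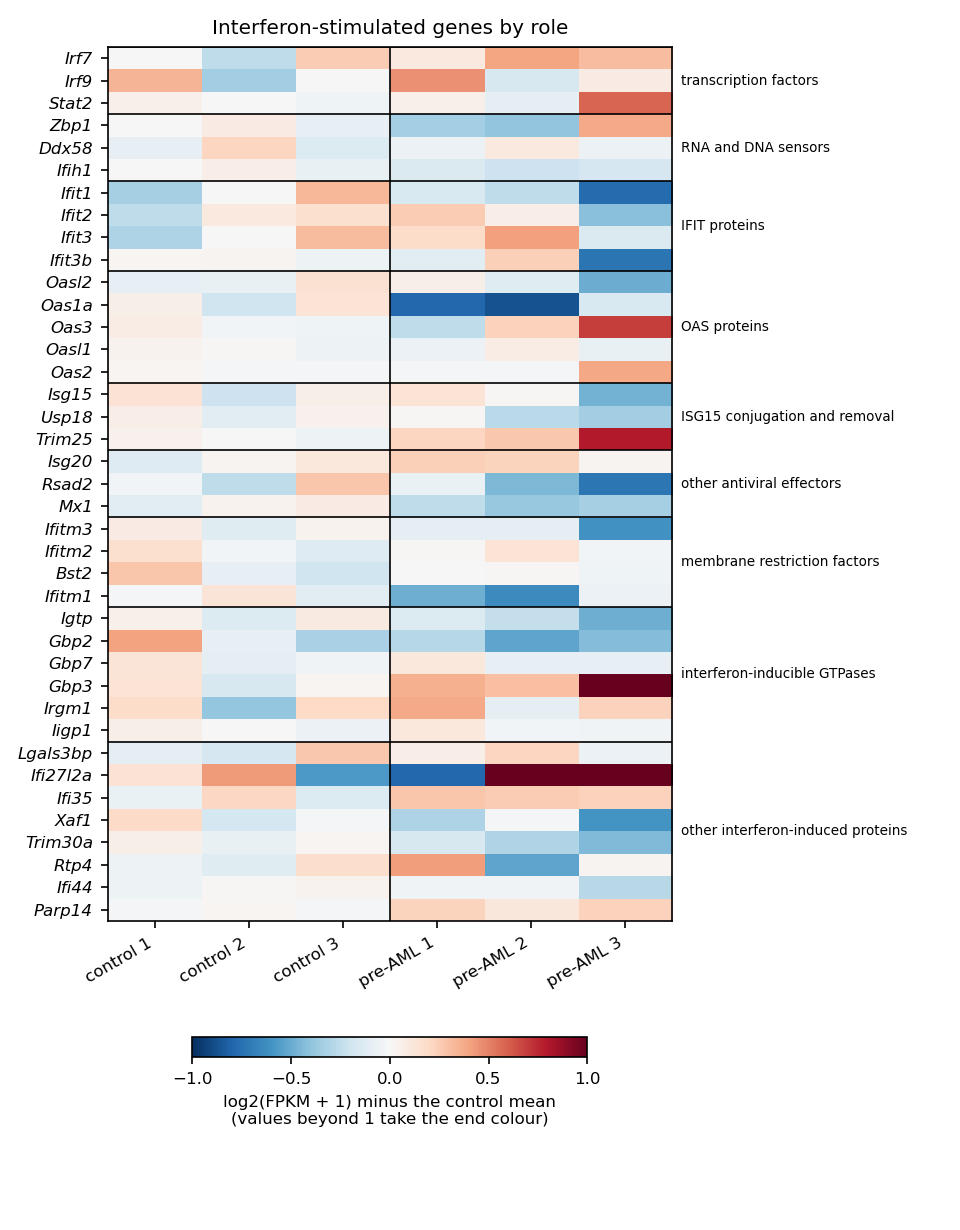
Log2(FPKM + 1) of each member in each library minus its control mean, in rows grouped by role and ordered by level within a role, with the 3 controls to the left of the vertical line and the 3 pre-AML libraries to the right. Blue is below and red above the control mean, values beyond 1 take the end colour, and the column of pre-AML 3 differs from those of pre-AML 1 and pre-AML 2 in Oas1a, Ifitm1, Zbp1 and Gbp3, among others.

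Ifi27l2a, a small hydrophobic protein, had the widest spread of all members. Its values were 1.84, 2.46 and 0.726 FPKM in the controls and 0.487, 6.16 and 44.1 FPKM in the pre-AML libraries. Pre-AML 1 was the lowest of the 6 libraries and pre-AML 3 the highest, so the pre-AML libraries stood on both sides of the controls. The recovered reads were 10, 16 and 4 against 3, 43 and 476. The log2 fold change was 1.61 (SE 1.01, BH-adjusted p = 0.555 by limma-trend), and without pre-AML 3 it was 0.35.

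Pre-AML 3 was the highest library in 8 of the 39 members (20.5%, against 35.9% of all genes). These were Ifi27l2a, Gbp3, Trim25, Stat2, Oas3, Oas2, Zbp1 and Parp14. Of the tested members it was highest in 1 of 25, Ifi27l2a (4.0%, against 18.7% of tested genes). Many leukocyte markers were highest in the same library, though only 1 of 8 neutrophil markers was. These 8 members were grouped by being highest in pre-AML 3, so sharing that library with markers follows from the grouping. The summed level of the 7 listed B cell markers was 1.38 to 1.93 FPKM in controls and 0.881, 20.8 and 249.8 FPKM in the pre-AML libraries, with Cd74, Cd79b and Cd79a the most abundant and Pax5 at 0 in controls. Ifi27l2a rose in the same order over the pre-AML libraries. In other marker lists some genes did so, such as Csf1r and Cd68, and others did not, such as Tyrobp, Lyz2, Gzma and Nkg7. These examples were picked after the values were seen, and a link between Ifi27l2a and any marker was not tested. The 12 monocyte and macrophage markers summed to 2386 to 2616 FPKM in controls and 2489, 2341 and 3541 FPKM in pre-AML libraries, led by Lyz2, Tyrobp and C1qb, with Cd14 and Ccr2 at 0 in controls. Lyz2 made up most of these sums, at 2384 to 2615 FPKM in controls and 2483, 2333 and 3093 FPKM in the pre-AML libraries. Tyrobp was at 0.126 to 0.533 FPKM in controls and 4.85, 4.37 and 153 FPKM in the pre-AML libraries. C1qb was at 0 to 0.457 FPKM in controls and 0, 0.122 and 128 FPKM in the pre-AML libraries. The 11 T and NK cell markers, led by Nkg7, Gzma and Cd2, summed to 19.1 to 28.8 FPKM and 38.3, 34.8 and 46.9 FPKM, with Cd3g, Cd2, Ncr1 and Prf1 at 0 in controls. Nkg7 made up most of these sums in controls, at 18.9 to 28.2 FPKM, and was at 25.2, 27.9 and 22.6 FPKM in the pre-AML libraries. Gzma was at 0 to 0.353 FPKM in controls and 7.25, 4.61 and 8.90 FPKM in the pre-AML libraries.

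The remaining marker lists are given by their sums. The 5 pan-leukocyte markers summed to 741 to 760 FPKM in controls and 787 to 880 FPKM in pre-AML libraries. Most of this was Laptm5, at 729 to 750 FPKM in controls and 737 to 866 FPKM in pre-AML libraries. Ptprc, the gene of CD45, was at 0.00600 to 0.0863 FPKM in controls and at 0.140, 0.179 and 1.57 FPKM in the pre-AML libraries. The 8 neutrophil markers summed to 3.19 to 3.66 FPKM and 1.97 to 4.58 FPKM, with Retnlg at 0 in controls, the 2 listed plasmacytoid dendritic cell markers to 0.211 to 0.289 FPKM and 0.324 to 0.545 FPKM, and the 5 erythroid markers to 39.0 to 55.0 FPKM and 26.8 to 40.4 FPKM. Whether RNA of leukocytes had a part in the values of Ifi27l2a, Gbp3, Trim25 and the other members highest in pre-AML 3 was not tested. Trim25, Gbp3 and Parp14 were above every control in pre-AML 1 and pre-AML 2 as well, as were 11.0% of all genes. The same held for 8 of 11 T and NK cell, 4 of 12 monocyte and macrophage and 3 of 5 pan-leukocyte markers. It held for 1 of 2 plasmacytoid dendritic cell, 1 of 8 neutrophil, 1 of 10 platelet, 0 of 7 B cell and 0 of 5 erythroid markers.

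**Figure D4:**
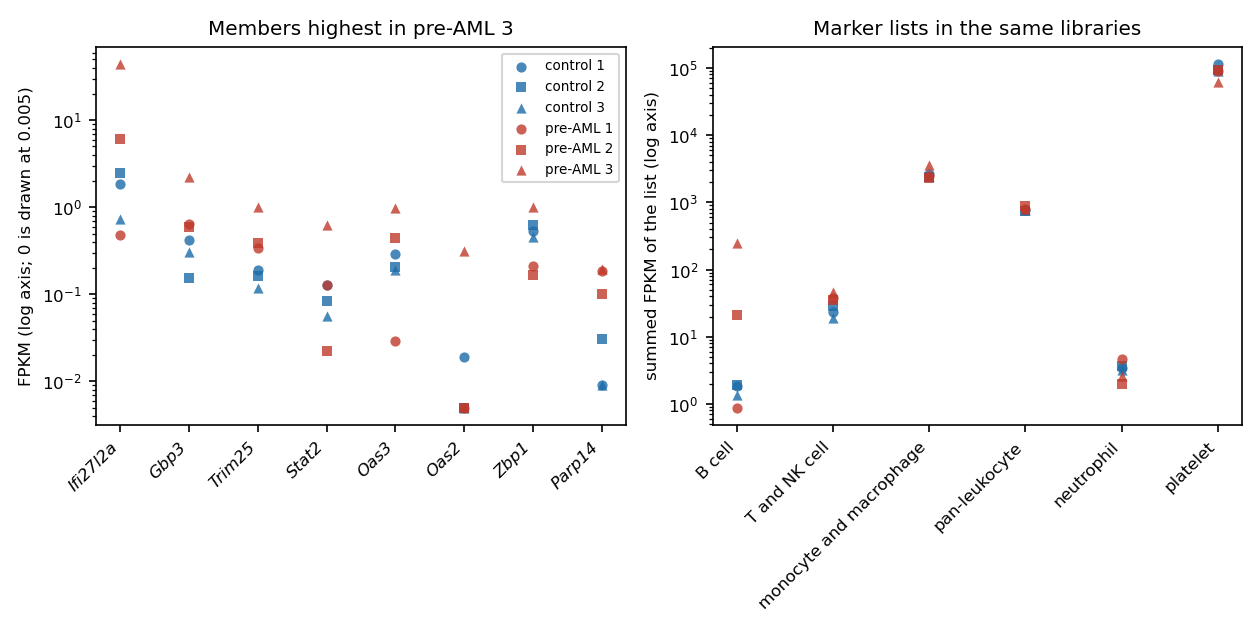
Left, FPKM on a log axis of the 8 members that were highest in pre-AML 3, one point for each library (a value of 0 is drawn at 0.005). Right, the summed FPKM of 6 marker lists in the same libraries on a log axis, where the B cell list reaches 249.8 FPKM in pre-AML 3 and at most 1.93 FPKM in controls.

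At the other end, pre-AML 3 was the lowest library in 11 of the 25 tested members (44.0%; 43.8% of all tested genes were), among them Ifitm3, Igtp, Isg15, Ifit1, Ifit2 and Rsad2. The summed FPKM of all 39 members was 5518, 4867 and 5452 in the controls and 5055, 5081 and 3787 in the pre-AML libraries. When each library was scaled to its recovered reads, pre-AML 3 was the lowest in 5 of 25 (20.0%; 16.4% of tested genes), namely Ifit1, Ifit3b, Oasl2, Ifitm3 and Xaf1, and the highest in 10 of 25 (40.0%; 44.7%). On both scales the share of members at the bottom lay within a few percentage points of the share of all tested genes.

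Genes upstream of these members showed no call. Of 12 interferon ligands and receptors looked for, 7 were listed and 3 tested, with 0 called and 0 at an unadjusted p under 0.05 in either direction. The listed ligands Ifnb1 and Ifng were at 0 in all controls. In the pre-AML libraries Ifnb1 was at 0, 0.442 and 0 FPKM and Ifng at 0.116, 0 and 0.563 FPKM. Of the receptor genes, Il10rb, a subunit of the receptor of type III interferons, had 5.39, 4.74 and 5.42 FPKM in the controls and 4.69, 4.71 and 4.91 FPKM in the pre-AML libraries. Ifnar2 had 3.25, 3.44 and 2.37 FPKM in the controls and 2.17, 2.49 and 2.69 FPKM in the pre-AML libraries, with a log2 fold change of -0.21. Ifngr1 was at 0.236 to 0.924 FPKM in controls and at 0.528, 1.05 and 3.99 FPKM in the pre-AML libraries. Receptors were named if their mean reached 1 FPKM, and Ifngr1 reached it only through its value in pre-AML 3.

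Of 20 genes of interferon signal transduction, all listed, 9 were tested and 0 called. Sting1, the adaptor of cytosolic DNA sensing, was at 0.0311, 0 and 0 FPKM in the controls and 0.192, 0.339 and 1.53 FPKM in the pre-AML libraries. It was named for its small p in the fit with no filter (unadjusted p = 0.0446, BH-adjusted p = 0.705 by limma-trend) and did not pass the threshold. Its pre-AML values were all above its control values, as in 7.53% of all genes.

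Of 54 further interferon-induced genes, 53 were listed and 18 tested, with 0 called. At an unadjusted p under 0.05, 2 of the 18 were higher and 1 lower, where 2.56% and 6.53% of all tested genes were. The lower gene was Ube2l6, the enzyme that conjugates ISG15, with 65.3, 46.2 and 51.5 FPKM in the controls and 44.5, 41.8 and 30.9 FPKM in the pre-AML libraries (log2 fold change -0.47, BH-adjusted p = 0.522 by limma-trend). The higher genes were Psmb8 and Psmb10, subunits of the immunoproteasome, named after their values were seen, at 1.09 and 0.81, and 0.51 and 0.41 without pre-AML 3. With no filter, 4 of 53 were higher (3.32% of all genes were), namely Slfn5, Tor3a, Ms4a4c and Apol9b, each under 1 FPKM in mean and Ms4a4c at 0 in all controls.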

How the data were processed

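The data were RNA-seq of platelets, 3 libraries a group. The authors mapped reads to mm10 with STAR and used DESeq2, and the table they deposited holds FPKM values per gene and library; the counting program, its annotation and its use of strand are not given in the sources used here. Columns were matched to samples by name. The table holds FPKM and no counts, so the main test was limma-trend (limma 3.58.1, R 4.3.3) on log2(FPKM + 1) for genes whose mean reached 1 FPKM, without covariates, with Benjamini-Hochberg adjustment over all tested genes and a threshold of 0.05. Members under the filter were taken from a fit of all genes. The test was tested on simulated data.

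Reads were recovered from FPKM with GENCODE M21 exon lengths for 14911 of 14975 genes. Of values under 1000 reads, 83.1% to 83.7% per library came within 0.05 of a whole read, so read numbers are estimates, and intervals and values cover these libraries only. Promoter letters were searched in RefSeq sequences (Python 3.11.15, pandas 2.3.3, numpy 2.4.6).

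The 39 members, the pathway and marker lists and the tests were chosen with earlier results of these data known. Values in every library are given for the 12 members with the highest mean and the 12 with the smallest p with no filter. For pathway lists, up to 6 genes with a p under 0.05 with no filter and receptors with a mean of at least 1 FPKM are named, and for marker lists the 3 highest. Alternatives were no filter, a pseudocount of 0.1, quantile normalization, scaling to recovered reads, removal of trends with length and GC content (loess, span 0.5), the replicate number as a block, and leaving out each library. Limma-voom on recovered reads, and no filter combined with each other alternative, were added after seeing the data. Marker or pathway genes not listed were Ifna2, Ifna4, Ifnl2, Ifnl3, Ifnlr1, Gbp6, Ighm, Cxcr2, Siglech, Ccr9, Klk1 and Ahsp. The result of 1 pathway gene is not reported here.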

Additional observations from a re-analysis of the deposited data

How the results depend on the processing

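No member was called under any alternative, with 0.311 as the smallest adjusted p of limma-trend over all of them. Of 476 alternative log2 fold changes of the members, 431 kept the sign of the main analysis and 45 reversed, in 19 members. The sign held throughout in 20 of 39, of which 6 were above 0 (Irf7, Trim25, Gbp3, Ifi27l2a, Ifi35 and Parp14) and 14 below 0 (Ifih1, Ifit1, Oas1a, Oasl2, Usp18, Mx1, Rsad2, Ifitm1, Ifitm3, Gbp2, Igtp, Ifi44, Xaf1 and Trim30a). With a pseudocount of 0.1, Ddx58 turned to 0.012. With quantile normalization, Ifit2 turned to 0.062, Bst2 to 0.059 and Iigp1 to -0.038. Scaled to recovered reads, which moved the median of all tested genes by 0.11, Ddx58 turned to 0.035, Ifit2 to 0.095, Isg15 to 0.021, Bst2 to 0.11, Gbp7 to 0.083 and Rtp4 to 0.042. With trends with length and GC content removed, Ddx58 turned to 0.033, Ifit2 to 0.18, Isg20 to -0.063, Ifitm2 to -0.093, Gbp7 to 0.20 and Lgals3bp to -0.096.

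Leaving out 1 library at a time, the log2 fold change ranged from -0.046 to 0.27 for Irf9, -0.022 to 0.31 for Stat2, -0.074 to 0.10 for Ddx58, -0.37 to 0.020 for Zbp1, -0.17 to 0.16 for Ifit2, -0.0063 to 0.31 for Ifit3, -0.42 to 0.065 for Ifit3b, -0.0091 to 0.19 for Oas2, -0.012 to 0.46 for Oas3, -0.066 to 0.0088 for Oasl1 (0.0001 without pre-AML 1), -0.23 to 0.075 for Isg15, -0.022 to 0.12 for Ifitm2, -0.11 to 0.13 for Bst2, -0.080 to 0.044 for Gbp7, -0.023 to 0.30 for Irgm1, -0.031 to 0.043 for Iigp1 (-0.015 without control 3), -0.092 to 0.22 for Rtp4 and -0.012 to 0.21 for Lgals3bp.

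At an unadjusted p under 0.05, 0 members were higher in the main analysis and 1 with no filter, 1 with quantile normalization (Isg20), 2 scaled to recovered reads (Isg20 and Ifi35) and 0 to 1 without 1 library. Lower were 1 in the main analysis, 2 with quantile normalization, 0 scaled to recovered reads, 2 with length and GC trends removed, 0 with limma-voom and 0 to 2 without 1 library. In the main analysis 1 gene of all those tested was called, and 0 with no filter, 0 scaled to recovered reads, 0 with limma-voom and 0 to 2 without 1 library. Unadjusted, 113 genes were higher and 288 lower, against 254 and 256 scaled to recovered reads, 187 and 282 with quantile normalization, 497 and 373 with no filter and 67 and 182 with length and GC trends removed. Without 1 library, 5 to 7 members stood above all controls and 5 to 9 below, against 4 and 3, since fewer libraries overlap less, and with quantile normalization 6 stood below. The median over the 39 members, -0.019, was 0.035 scaled to recovered reads.

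Deviations of libraries with the same replicate number correlated at -0.043, -0.12 and -0.17. For each control, pre-AML 1 and pre-AML 2 shared a sign and pre-AML 3 had the opposite sign. These values thus followed pre-AML 3 and could not decide whether replicate numbers paired the libraries. With the replicate number as a block, 0 members and 1 gene were called, with 118 genes higher and 254 lower at an unadjusted p under 0.05. Members under 1 FPKM rest on few reads, down to 0 or 1 in a library, and 3 libraries a group limit what could be seen.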
